A study of Mus musculus with 30 samples.

Results

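Colon 26 tumors of about 400 mm3 were compared with CT-26 tumors of the same size over all genes, and lymphocyte genes and the RNA of skeletal muscle were looked at closely. The 8 libraries, 4 of each model, were those whose labels give the model and a size of 400 mm3, out of 30 libraries in the series. CT-26 and Colon 26 are established colon carcinoma cell lines of BALB/c mice, and the cells had been placed under the skin of the right flank in female mice of that strain. The CT-26 tumors measured 400.47 to 464.68 mm3 at harvest and the Colon 26 tumors 401.52 to 466.73 mm3. The other libraries were 3 cultures of each cell line and 4 tumors of each model at 100 and at 800 mm3. None of the 8 labels gives an antibody, so the tumors are treated here as undosed, but a general text attached to the samples speaks of antibody injections and the point was not settled. Each tumor was a separate sample, but the labels do not say that each came from its own mouse, so the p-values measure the spread between these samples.

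Cytotoxic T cells and natural killer (NK) cells kill with perforin, which opens the target membrane, and with granzymes, which are proteases that enter through it. T cells find their targets through the T cell receptor and its CD3 chains, with CD8 or CD4 as a coreceptor, and checkpoint receptors such as PD-1 and CTLA-4 restrain them. Interferons, made by T cells, NK cells and other cells, switch on a set of antiviral and antigen-presentation genes in the cells that sense them. Tumors of the flank grow next to skeletal muscle, whose fibers carry very large amounts of a few contractile transcripts.

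Estimated counts on genes summed to 22923606 to 30182108 per CT-26 tumor and to 26422593 to 33285923 per Colon 26 tumor, and values are given as CPM, the counts scaled to a common library size after TMM normalization. The 10 genes with the most counts took 5.55 to 6.93% of a library and mitochondrial genes 1.18 to 1.59%. Of the markers of colon epithelium, Epcam was at 0.18 CPM or less and Krt8 at 0.63 CPM or less in every tumor. Other members were present mainly in 1 model. Krt20 was at 116 to 165 CPM and Krt18 at 6.05 to 14.2 CPM in CT-26, and Cdx2 at 3.76 to 5.06 CPM in Colon 26. Krt20 was also present in the Colon 26 tumors, at lower levels. Colon 26 tumor 1 and CT-26 tumor 4 stood apart by their skeletal muscle RNA, and CT-26 tumor 3 by its granzymes, so the main counts are also given without them. The tumor numbers are only names.

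The models differed widely at 400 mm3. Of 15241 genes tested, 988 were higher in Colon 26 and 1188 lower, at an adjusted p of at most 0.1 and at least a 2-fold difference (edgeR's quasi-likelihood test with Benjamini-Hochberg adjustment). These 2176 DE genes were 14.3% of the genes tested, 6.48% higher and 7.79% lower, and the median log2 fold change of all genes was 0.03. Without Colon 26 tumor 1 and CT-26 tumor 4 the counts were 1030 higher and 1270 lower. Without CT-26 tumor 3 they were 960 higher and 1192 lower. In cultures of the cell lines, compared by the same test, 557 of the 988 higher genes (56.4%) and 565 of the 1188 lower genes (47.6%) were DE in the same direction.

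The largest differences were close to presence against absence, and they were present in culture too. Syt1, a calcium sensor of vesicle fusion, was at 20.2, 17.3, 21.8 and 12.5 CPM in the CT-26 tumors and had no count in any Colon 26 tumor (chr10:108497650-109010982, GRCm38). Against a floor of 3 counts per library this was at least 174-fold lower in Colon 26 (adjusted p = 2.06e-05). Slc1a2, a glutamate transporter, was at 26.6, 44.7, 45.9 and 43.1 CPM in CT-26 and at 0.067, 0.0376, 0.0303 and 0 CPM in Colon 26 (log2 fold change −10.02, SE 0.37, adjusted p = 7.73e-07). Rhox5, a homeobox gene of the X chromosome, was at 146, 124, 161 and 126 CPM in CT-26 and at 0.0909 to 0.57 CPM in Colon 26 (log2 fold change −8.84, adjusted p = 7.89e-07). Krt18, a keratin of simple epithelia, was at 6.05 to 14.2 CPM in CT-26 against at most 0.067 CPM in Colon 26, a ratio of summed counts of 364 with a 95% counting interval of 124 to 1767. Rgs17, Gm2381, Ppef1 and Dppa4 were lower in Colon 26 by log2 fold changes of −8.44, −7.50, −7.08 and −6.75, and all 8 of these genes were also lower in Colon 26 cultures. Over the Colon 26 tumors together, Slc1a2 had 4 counts, Rgs17 4, Gm2381 5, Ppef1 18 and Dppa4 8. The sizes of their fold changes, and the SE of Slc1a2, are therefore uncertain.

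At the other end, Slc9a2, a sodium and proton exchanger, was at 26.6, 30.3, 34.2 and 30.9 CPM in Colon 26 and at 0.084 CPM or less in CT-26 (chr1:40680574-40769273, GRCm38). Its ratio of summed counts was 1070, with a 95% counting interval of 366 to 5191, and its adjusted p was 7.73e-07. Dnah1, a heavy chain of the axonemal dynein motor, was at 224, 205, 231 and 197 CPM in Colon 26 and at 0.195, 0.644, 0.308 and 0.42 CPM in CT-26 (log2 fold change 9.05, SE 0.22, adjusted p = 3.63e-07). Fras1, an extracellular matrix protein of basement membranes, was at 28.1 to 36.6 CPM in Colon 26 and at 0.294 CPM or less in CT-26 (log2 fold change 8.34, adjusted p = 1.21e-05). Lingo1, a transmembrane protein of neurons, and Glp1r, the receptor of the hormone GLP-1, were higher by log2 fold changes of 7.48 and 6.50. Over the CT-26 tumors together, Fras1 had 10 counts, Lingo1 5 and Glp1r 9, so the sizes of their fold changes are uncertain. The uncharacterised models B530045E10Rik, 4930452B06Rik and Gm38226 were higher as well, and all 8 genes were higher in Colon 26 cultures. Slc1a2, Dnah1 and Fras1 overlap genes on the other strand, and the handling of strand was not given in the sources used here, so their reads cannot be told apart from those of the partner.

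Lymphocyte genes were lower in Colon 26 tumors. Over 5 lists (T cell receptor, coreceptors, cytotoxic and NK genes, regulatory and checkpoint receptors, B and plasma cells), 80 of 100 genes passed the low-count filter, and 54 of these 80 (67.5%) were called lower and 1 higher, against 7.79% and 6.48% of all genes. Their median log2 fold change was −1.59, against 0.03 for all genes. In 34 of the 80 the groups did not overlap, against 43.5% of all genes. Without Colon 26 tumor 1 and CT-26 tumor 4, 46 were lower and 1 higher, with a median of −1.74, and without CT-26 tumor 3 there were 55 lower. That was the highest count with 1 tumor left out, and the lowest was 41, without Colon 26 tumor 2 or tumor 3. In all 6 cultures 62 of the 100 genes had at most 3 counts. In bulk RNA, fewer cells of a type and less RNA per cell cannot be told apart.

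Among the T cell receptor genes, 19 of 25 tested were lower in Colon 26, against 7.79% of all genes. Here 1 was higher, and the median log2 fold change was −1.59. With 1 tumor left out at a time, 13 to 21 genes of the list were lower. Cd3e, a CD3 chain, was at 2.68, 6.78, 1.73 and 4.83 CPM in CT-26 and at 1.07, 0.451, 1.52 and 1.15 CPM in Colon 26 (log2 fold change −1.93, SE 0.48, adjusted p = 0.0109). The groups did not overlap, but the lowest CT-26 tumor, tumor 3, lay close to the highest Colon 26 tumor. Cd3g, another CD3 chain, was at 5.21, 12, 2.89 and 9.28 CPM against 2.48, 1.05, 2.7 and 2.2 CPM (log2 fold change −1.80, adjusted p = 0.0115). Cd8a, the alpha chain of the CD8 coreceptor, was at 9.03, 22.8, 4.59 and 15 CPM in CT-26 and at 3.45, 1.65, 5.67 and 2.59 CPM in Colon 26 (log2 fold change −1.94, SE 0.52, adjusted p = 0.0149). Here the groups overlapped through CT-26 tumor 3. Cd4, the coreceptor of helper T cells and also present on other cells, was at 1.83, 4.81, 0.655 and 2.73 CPM against 2.04, 0.489, 0.97 and 2.3 CPM and did not pass the test (log2 fold change −0.79, SE 0.62, adjusted p = 0.332). Within the models, CT-26 tumor 2 was the highest CT-26 tumor in 21 of the 25 genes and CT-26 tumor 3 the lowest in 20, while Colon 26 tumor 2 was the lowest Colon 26 tumor in 22. Cd3e shares exon sequence with a gene on the other strand, which limits its value.

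The exception was Bcl11b, a transcription factor of the T cell lineage, at 0.545, 1.22, 0.27 and 1.13 CPM in CT-26 and at 5.59, 4.44, 4.58 and 4.28 CPM in Colon 26 (log2 fold change 2.57, SE 0.40, adjusted p = 0.000967). In the cultured cell lines its mean was 0.0538 CPM for CT-26 and 12.0 CPM for Colon 26. Lef1, a transcription factor of T cells and of the Wnt pathway, was likewise present in the cultured cells, at means of 4.65 CPM for CT-26 and 1.22 CPM for Colon 26. Its tumor values were 4.71, 3.9, 5.59 and 4.45 CPM against 1.61, 1.01, 0.818 and 0.864 CPM (log2 fold change −2.11, adjusted p = 0.000217). The kinase Lck was also above the floor in culture, at 3.25 and 6.53 CPM, so for these 3 genes the tumor cells can contribute to the tumor value. They may not be the only such genes. Of the 26 genes of the list, 16 had at most 3 counts in every culture, and 5 of those tested in tumors also passed the low-count filter in culture.

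Cytotoxic and NK genes had the lowest median of the 5 lists, though the lists were not tested against each other. Of 28 tested, 23 were lower in Colon 26, against 7.79% of all genes, and none higher, with a median log2 fold change of −1.82. Without CT-26 tumor 3 there were also 23 lower. The count fell to 17 without Colon 26 tumor 2 or tumor 3 and rose to 25 without CT-26 tumor 4. Of the 23 genes, 17 were called in all 8 fits that left out 1 tumor. Gzmb, granzyme B, was at 40.6, 43, 90.8 and 25.8 CPM in CT-26 and at 10.9, 6.31, 7.88 and 11.1 CPM in Colon 26 (log2 fold change −2.47, SE 0.38, adjusted p = 0.000902). Prf1, perforin, was at 29.6, 35.4, 112 and 22.2 CPM against 7.4, 6.05, 9.34 and 12.1 CPM (log2 fold change −2.51, SE 0.52, adjusted p = 0.00415). Gzma, granzyme A, was at 22.1, 14.2, 22.5 and 17.7 CPM against 4.12, 0.601, 0.94 and 2.92 CPM (log2 fold change −3.15, adjusted p = 0.00151). In all 3 genes every CT-26 tumor was above every Colon 26 tumor. Il2rb, a receptor chain for interleukins 2 and 15, was at 37.2 to 52.2 CPM against 5.49 to 14.7 CPM (log2 fold change −2.04, adjusted p = 0.000437). Ncr1, an activating receptor of NK cells, was at 3.42, 2.85, 1.5 and 4.54 CPM against 1.57, 0.263, 0.727 and 1.08 CPM (log2 fold change −1.75, adjusted p = 0.0203). Ifng, interferon gamma, was at 1.13, 3.93, 0.848 and 1.6 CPM against 1.17, 0.301, 0.576 and 0.396 CPM (log2 fold change −1.61, adjusted p = 0.0493), with overlapping groups, and it was called in 4 of the 8 fits that left out 1 tumor.

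**Figure D1:**
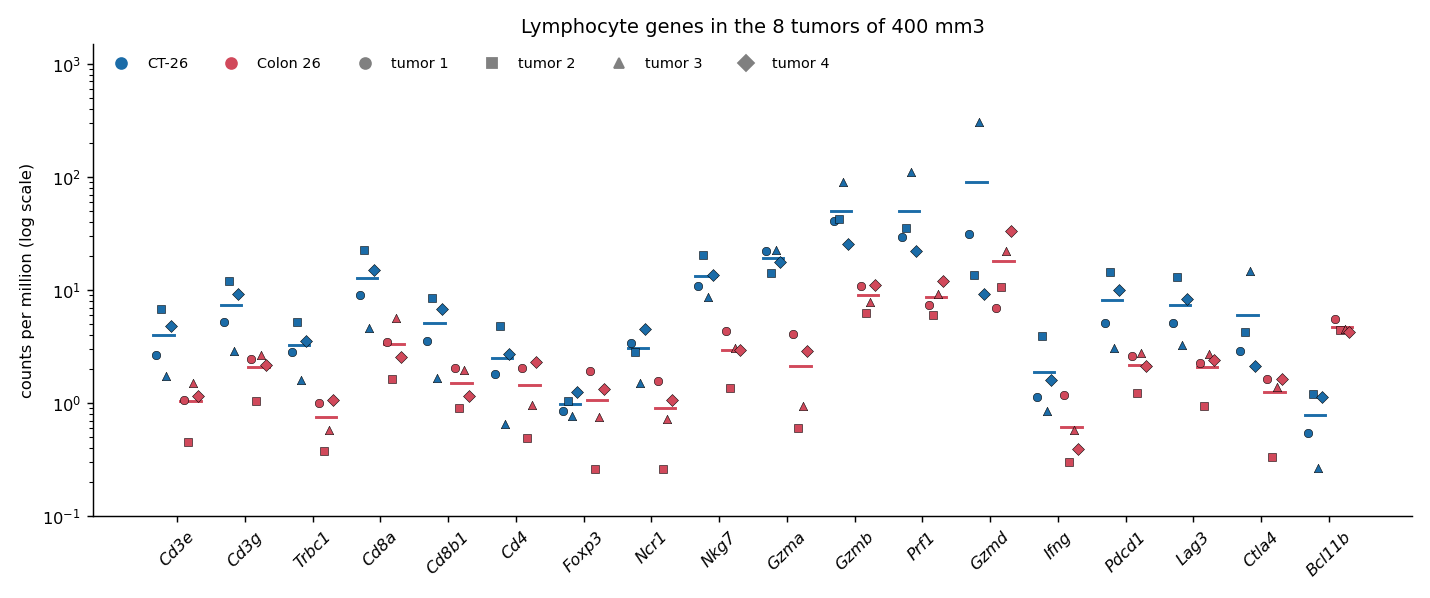
CPM (counts scaled to library size), on a log scale, of lymphocyte genes in the 4 CT-26 and 4 Colon 26 tumors of 400 mm3, with 1 point per tumor and a bar at the mean of each group. For Gzmb the CT-26 tumors lie between 25.8 and 90.8 CPM and the Colon 26 tumors between 6.31 and 11.1 CPM, whereas for Foxp3 the groups overlap.

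The tandem granzymes Gzmc to Gzmg, proteases of activated killer cells, set CT-26 tumor 3 apart. Their summed level was 127, 53.4, 1132 and 36.6 CPM in the CT-26 tumors and 35.7, 42.1, 78.5 and 115 CPM in the Colon 26 tumors. They made up 76.4% of the summed level of the cytotoxic list in CT-26 tumor 3 and 13.2 to 36.4% in the other CT-26 tumors. Gzmd was at 306 CPM in that tumor against 9.16 to 31.6 CPM in the other CT-26 tumors, and its difference between the models did not pass the test (log2 fold change −2.31, SE 1.1, adjusted p = 0.121). These genes are near copies of each other, so reads may have been split between them. Leaving out Gzmb, Prf1 and Gzmc to Gzmg, the list summed to 152, 231, 147 and 193 CPM in CT-26 and to 70.9, 31.2, 46.2 and 55.1 CPM in Colon 26, and CT-26 tumor 3 no longer stood apart.

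Checkpoint receptors differed in the size of the change more than in its direction. Of 16 genes of regulatory T cells and checkpoint receptors, 7 were called lower in Colon 26, against 7.79% of all genes, and the median log2 fold change was −0.78. By sign alone, 15 of the 16 had a negative log2 fold change and 1, Foxp3, a positive one. Pdcd1, which encodes PD-1, was at 5.14, 14.6, 3.08 and 10 CPM in CT-26 and at 2.61, 1.24, 2.79 and 2.12 CPM in Colon 26 (log2 fold change −1.90, SE 0.48, adjusted p = 0.0109). Ctla4, which encodes CTLA-4, was at 2.88, 4.24, 14.8 and 2.14 CPM against 1.64, 0.338, 1.39 and 1.66 CPM (log2 fold change −2.25, SE 0.69, adjusted p = 0.027), with CT-26 tumor 3 highest. Lag3, an inhibitory receptor of activated T cells, was at 5.1, 13, 3.28 and 8.32 CPM against 2.28, 0.94, 2.73 and 2.41 CPM (log2 fold change −1.82, adjusted p = 0.0115). None of these 3 overlapped between the models. Foxp3, which defines regulatory T cells, was at 0.856, 1.05, 0.771 and 1.26 CPM against 1.94, 0.263, 0.758 and 1.33 CPM (log2 fold change 0.13, SE 0.50, adjusted p = 0.854), and Havcr2, which encodes TIM-3, had a log2 fold change of −0.20 (adjusted p = 0.477). Tnfrsf9, which encodes the costimulatory receptor 4-1BB, was at 167, 140, 236 and 34.3 CPM against 33.9, 54.2, 49.2 and 64.5 CPM (log2 fold change −1.52, adjusted p = 0.0304), and was also expressed in cultured cells, at means of 43.1 CPM for CT-26 and 22.6 CPM for Colon 26. Cd274, which encodes the PD-1 ligand PD-L1, was at 66.2, 144, 63.7 and 39 CPM against 27.7, 14.1, 29.1 and 19.9 CPM (log2 fold change −1.79, SE 0.40, adjusted p = 0.00602). Cultured cells also expressed Cd274, at means of 15.5 CPM for CT-26 and 5.79 CPM for Colon 26, and it was called lower there too (log2 fold change −1.42). Foxp3 and Cd274 overlap genes on the other strand.

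B and plasma cell genes gave a mixed picture. The list of 24 summed to 88 to 125 CPM in CT-26 tumors and to 134 to 161 CPM in Colon 26 tumors, the higher level being that of Colon 26 in every tumor. Most of the sum was Sdc1, a proteoglycan of plasma cells and epithelial cells, at 58.9 to 82.1 CPM against 114 to 141 CPM, which averaged 15 CPM and 92.2 CPM in the cultured CT-26 and Colon 26 cells. Ms4a1, a defining surface protein of B cells, was at 0.0909 CPM or less in every tumor and did not pass the low-count filter. Of the 24 genes 8 were tested and 3 were lower in Colon 26, against 7.79% of all genes. These were Bank1 (log2 fold change −2.36), Spib (−2.37) and Cd79b (−1.53, adjusted p = 0.0948). Ighm, the heavy chain of IgM, was at 15, 20.4, 3.31 and 52.6 CPM in CT-26 and at 12.4 to 22.3 CPM in Colon 26 (log2 fold change −0.48, adjusted p = 0.572). Of 12 genes of lymph node stroma and homing 5 were tested and 1 was called lower. The list summed to 44.7 to 102 CPM in CT-26 and to 4.43 to 13.5 CPM in Colon 26. The log2 fold changes of the 5 ran from −4.75 to −0.30. Their median was −0.82, a 1.77-fold lower level, so the gap between the sums does not describe most of the list. Ccl19 and Ccl21a, chemokines of lymph node stroma, were at 0.336 CPM or less in all 8 tumors. The part of lymph node tissue in the lymphocyte results was not tested.

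**Figure D2:**
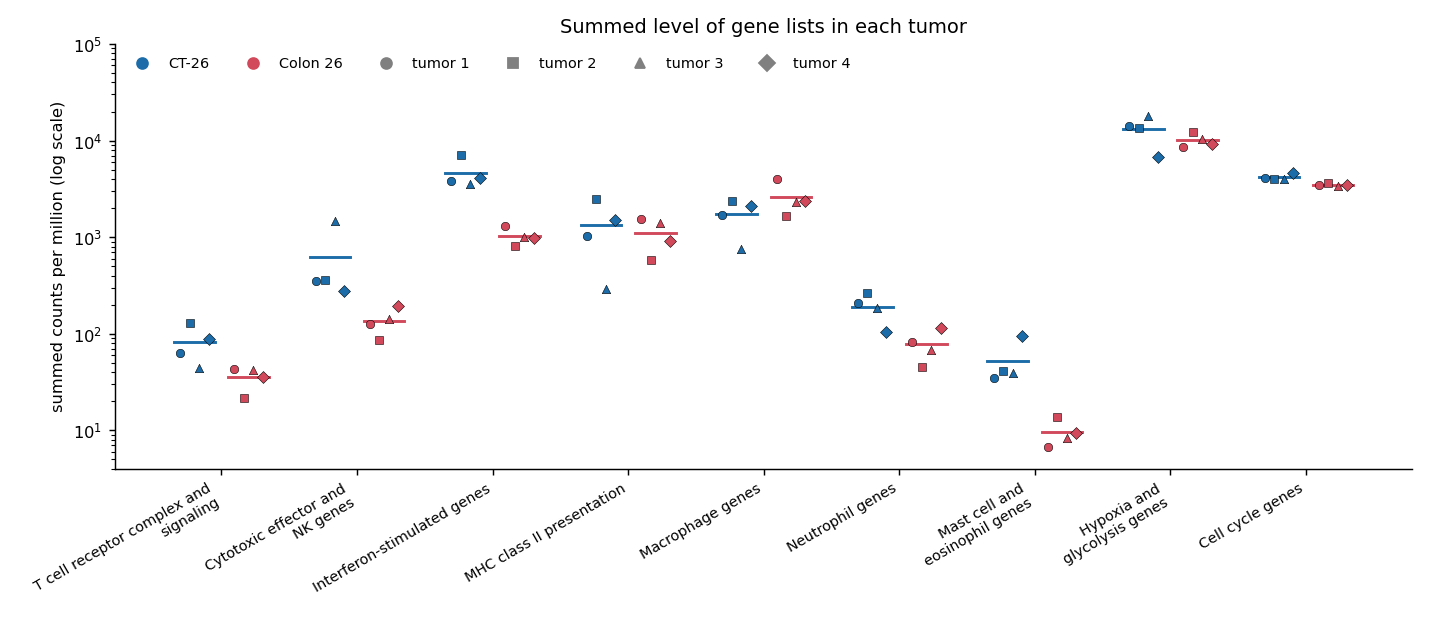
Summed CPM of gene lists in each of the 8 tumors of 400 mm3, on a log scale, with 1 point per tumor, a bar at the mean of each model, and CT-26 and Colon 26 side by side. The interferon-stimulated genes sum to 3594 to 7129 CPM in CT-26 and to 815 to 1310 CPM in Colon 26, while CT-26 tumor 3 stands above the others in cytotoxic and NK genes and CT-26 tumor 4 in mast cell and eosinophil genes.

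Interferon-stimulated genes were lower in Colon 26 tumors. Of 34 such genes, 32 (94.1%) were lower in Colon 26 tumors, against 7.79% of all genes, and none was higher. In 33 the groups did not overlap, against 43.5% of all genes. The median log2 fold change was −2.37, a 5.15-fold lower level. Oas1a, an antiviral sensor of double-stranded RNA, was at 64.9, 76, 50.3 and 56.9 CPM in CT-26 and at 7.77, 9.25, 8.03 and 8.28 CPM in Colon 26 (log2 fold change −2.90, SE 0.14, adjusted p = 2.94e-06). Oas3, a larger enzyme of the same family, was at 78.2, 118, 63 and 66.5 CPM against 11, 11, 7.94 and 11 CPM (log2 fold change −3.00, SE 0.22, adjusted p = 2.16e-05). Ddx58, which encodes the RNA sensor RIG-I, was at 78.7, 89.6, 71.5 and 72.9 CPM against 34.5, 30.8, 31.9 and 32.9 CPM (log2 fold change −1.26, SE 0.08, adjusted p = 1.33e-05). The Colon 26 tumors were close to each other in these 3 genes, and all were below the CT-26 tumors. Oas2, Oasl2 and the protease Usp18, which removes the ubiquitin-like protein ISG15, were lower by log2 fold changes of −3.01, −2.65 and −2.71. The 2 members not called, named after their values were seen, were Irf1, a transcription factor of the interferon gamma response, with a log2 fold change of −0.95 (adjusted p = 0.00746), under the 2-fold limit, and Socs1, a feedback inhibitor of cytokine signaling. Socs1 was at 19.7, 28.6, 16.2 and 17.8 CPM in CT-26 and at 30.9, 17.2, 22.6 and 19.3 CPM in Colon 26 (log2 fold change 0.13, SE 0.22, adjusted p = 0.672). CT-26 tumor 2 was the highest CT-26 tumor in all 34 genes. Without Colon 26 tumor 1 and CT-26 tumor 4, 32 were lower, with a median of −2.50.

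The cultured cells did not show this difference to the same count. In culture 33 of the genes were tested, and 8 were lower in Colon 26 and 6 higher, against 12.3% lower and 10.6% higher among all genes, with a median log2 fold change of −0.14. The list summed to 522 to 544 CPM in the CT-26 cultures and 445 to 457 CPM in the Colon 26 cultures, and to 3773, 7129, 3594 and 4057 CPM in the CT-26 tumors and 1310, 815, 1001 and 980.5 CPM in the Colon 26 tumors. The sums were thus above culture in tumors of both models. Oas1a and Oas2 were lower in Colon 26 already in culture, with means of 45.2 against 14.9 CPM and 26.3 against 4.04 CPM, and Oasl2 was at 18.3 and 17.4 CPM. Lymphocyte markers were also lower in Colon 26. The T cell receptor list, with 19 of 25 genes lower, summed to 44.1 to 130 CPM in CT-26 tumors and 21.7 to 43.7 CPM in Colon 26 tumors. The cytotoxic and NK list summed to 278 to 1482 CPM and 85.6 to 193 CPM. Among CT-26 tumors, tumor 2 was highest and tumor 3 lowest in both the interferon and the T cell receptor sums. In the cytotoxic and NK sum tumor 3 was instead the highest, at 1482 CPM. The part of lymphocytes in the interferon result was not tested.

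**Figure D3:**
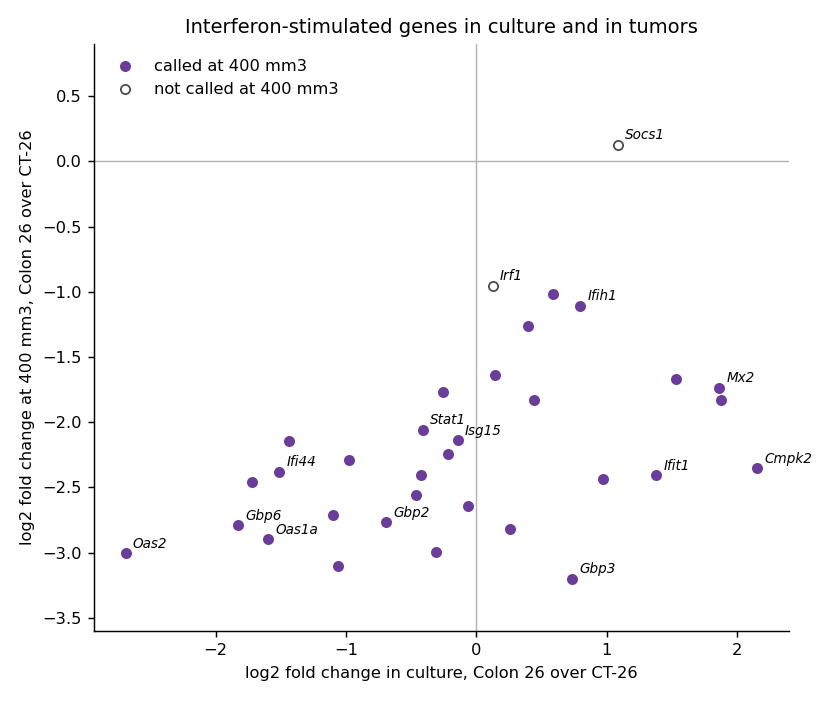
Log2 fold change of Colon 26 over CT-26 of each interferon-stimulated gene in culture (x axis) and in tumors of 400 mm3 (y axis), with 1 point per gene (filled if called in tumors) and lines at 0. All points but that of Socs1 lie below 0 on the y axis, with a median of −2.35 over the 33 genes tested in culture, and spread to both sides of 0 on the x axis, with a median of −0.14.

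Promoters of 24 of the 34 genes were found by symbol in a RefSeq table of mouse promoters (GRCm38.p6), each from 250 bases before to 50 bases after the start of the gene. They were searched on both strands for GAAANNGAAA (reverse complement TTTCNNTTTC), the core of the element that interferon-activated transcription factors bind, with overlapping matches counted. It was found in 17 of the 24 (70.8%) and in 16 of the 22 that were called lower (72.7%). All promoters of the table held it in 1079 of 27025 cases (3.99%), those of genes higher in Colon 26 in 16 of 646 (2.48%), and those of the other genes lower in Colon 26 in 67 of 732 (9.15%). The match is a description of the letters and not evidence of binding. Printed here are 3 called genes whose values were given above and Socs1, which was not called and also held the motif, 5′ to 3′ on the strand of the gene, with every match in capitals. They lie at chr5:120907476-120907775 (Oas1a), chr5:120777610-120777909 (Oas3), chr4:40239776-40240075 (Ddx58) and chr16:10785487-10785786 (Socs1), all on the minus strand.
Oas1a: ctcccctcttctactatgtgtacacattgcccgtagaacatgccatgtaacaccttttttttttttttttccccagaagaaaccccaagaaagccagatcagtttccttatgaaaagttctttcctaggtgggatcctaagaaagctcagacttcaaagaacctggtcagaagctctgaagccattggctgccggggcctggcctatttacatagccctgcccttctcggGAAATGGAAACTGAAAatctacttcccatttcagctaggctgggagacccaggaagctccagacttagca
Oas3: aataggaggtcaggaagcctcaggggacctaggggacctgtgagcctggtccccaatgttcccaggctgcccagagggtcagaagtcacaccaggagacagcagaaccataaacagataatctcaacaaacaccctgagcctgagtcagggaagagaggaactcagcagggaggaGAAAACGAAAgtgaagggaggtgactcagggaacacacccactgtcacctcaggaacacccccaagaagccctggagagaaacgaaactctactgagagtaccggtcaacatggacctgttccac
Ddx58: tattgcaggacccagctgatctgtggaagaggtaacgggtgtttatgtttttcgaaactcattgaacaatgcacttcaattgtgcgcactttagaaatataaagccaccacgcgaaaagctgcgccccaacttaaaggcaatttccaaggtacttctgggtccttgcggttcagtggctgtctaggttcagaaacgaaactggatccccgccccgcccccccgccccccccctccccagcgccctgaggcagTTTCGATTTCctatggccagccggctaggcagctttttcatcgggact
Socs1: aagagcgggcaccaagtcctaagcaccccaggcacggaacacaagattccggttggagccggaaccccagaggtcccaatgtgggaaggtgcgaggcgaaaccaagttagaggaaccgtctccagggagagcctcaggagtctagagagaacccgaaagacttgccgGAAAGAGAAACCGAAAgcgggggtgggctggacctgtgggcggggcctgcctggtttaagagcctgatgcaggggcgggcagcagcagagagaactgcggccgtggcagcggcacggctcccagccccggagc
In Oas1a and Socs1 the capitals are a pair of overlapping matches, which start 20 and 14 bases before the gene start in Oas1a and 83 and 77 bases before it in Socs1. Oas3 has its match 75 bases before the start, and in Ddx58 the match is on the other strand, just after the start. Oasl2, which was also lower, held no match in this window.

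Antigen presentation by MHC class I was lower in part. Of 21 genes 6 were lower and none higher in Colon 26, against 7.79% and 6.48% of all genes, and the median log2 fold change was −0.75. Counting by an adjusted p of at most 0.1 alone, 17 of the 21 were lower, against 26.3% of all genes. Psmb9, a subunit of the immunoproteasome, was at 134, 209, 116 and 113 CPM in CT-26 and at 44.2, 30.2, 45.2 and 34.7 CPM in Colon 26 (log2 fold change −1.89, SE 0.22, adjusted p = 0.000207). Nlrc5, the transactivator of class I genes, Tap1, a peptide transporter, and B2m, the light chain of class I molecules, were lower by log2 fold changes of −1.37, −1.17 and −1.07. H2-T22 and H2-Q4, at −1.55 and −1.24, are class I genes with near copies, among which reads may have been split. None of 10 class II genes was called, with a median of −0.33. Cd74, the invariant chain of class II molecules, was at 421, 1040, 103 and 594 CPM in CT-26 and at 577, 200, 566 and 340 CPM in Colon 26 (log2 fold change −0.36, SE 0.60, adjusted p = 0.656), a wide spread in both models, and CT-26 tumor 3 was the lowest CT-26 tumor in all 10 class II genes.

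Of 30 chemokines 9 were lower and 2 higher in Colon 26, against 7.79% lower and 6.48% higher among all genes, so the share of higher genes was near that of all genes. Cxcl1, which attracts neutrophils, was at 39.9, 59.8, 41.8 and 2.35 CPM in CT-26 and at 1.84, 0.752, 0.909 and 1.98 CPM in Colon 26 (log2 fold change −4.71, SE 0.86, adjusted p = 0.00216). CT-26 tumor 4 was far below the other CT-26 tumors in this gene, but still above the Colon 26 tumors. Ccl3, Ccl4 and Ccl5, which attract T cells and monocytes, had log2 fold changes of −1.45, −1.09 and −1.68. Cxcl9, Cxcl10 and Cxcl11, the interferon-induced ligands of the T cell receptor for chemokines CXCR3, were not called, with log2 fold changes of −0.38, −0.69 and −0.48 (adjusted p = 0.585, 0.118 and 0.366). For Cxcl9 the CT-26 tumors held 73.7, 155, 30.4 and 95.9 CPM and the Colon 26 tumors 127, 29.5, 59.4 and 56.2 CPM, so the groups overlapped through most of their range. Cx3cl1, a membrane-bound chemokine, was at 1.44, 2, 0.617 and 1.72 CPM in CT-26 and at 64.6, 77.2, 74.2 and 87.6 CPM in Colon 26 (log2 fold change 5.71, SE 0.28, adjusted p = 3.56e-06), and in culture its means were 0.142 and 46.1 CPM. Cxcl14, the other higher chemokine, averaged 0.0399 CPM or less in the cultures of either line, and at 17.9, 29.2, 4.32 and 40.5 CPM against 80.8, 82.1, 108 and 75.9 CPM in the tumors (log2 fold change 1.91, adjusted p = 0.0156). Cxcl10 and Cxcl11 overlap genes on the other strand, and Cxcl11 is annotated as a polymorphic pseudogene.

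Of 22 macrophage genes, 2 were higher and 2 lower in Colon 26, shares near the 6.48% and 7.79% of all genes, with a median log2 fold change of 0.60. The higher calls numbered 0 without CT-26 tumor 3, 1 without Colon 26 tumor 1 and 4 without CT-26 tumor 4. Csf1r, the receptor of the macrophage growth factor CSF-1, was at 146, 151, 46.6 and 187 CPM in CT-26 and at 349, 208, 249 and 262 CPM in Colon 26 (log2 fold change 1.01, SE 0.37, adjusted p = 0.0498), close to the 2-fold limit, and it was called in 6 of the 8 fits that left out 1 tumor. Ccr2, a chemokine receptor of monocytes, was higher by a log2 fold change of 1.18 (adjusted p = 0.0132), Ly6c2, a surface protein of inflammatory monocytes, was lower by −2.05 (adjusted p = 0.00421) and Adgre1, which encodes F4/80, was not called (log2 fold change −0.36, adjusted p = 0.515). Of 12 neutrophil genes tested 8 were lower, against 7.79% of all genes. Without both tumors with muscle RNA, when more of the list passed the low-count filter, 11 of its 18 genes were lower. S100a9, an abundant calcium-binding protein of neutrophils, was at 17.4, 20, 32.1 and 2.35 CPM in CT-26 and at 1.84, 0.188, 0.394 and 2.05 CPM in Colon 26 (log2 fold change −4.0, SE 0.89, adjusted p = 0.00586), and CT-26 tumor 4 was little above the Colon 26 tumors. Ly6g, a defining marker of neutrophils, was at 0.0389 CPM or less in all 8 tumors.

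Mast cell and eosinophil genes, taken as 1 list, were lower in Colon 26 in 6 of 7 tested, against 7.79% of all genes, with a median log2 fold change of −3.45. Cpa3, a carboxypeptidase of mast cell granules, was at 6.22, 7.12, 7.32 and 20.5 CPM in CT-26 and at 0.804, 1.65, 0.485 and 0.432 CPM in Colon 26 (log2 fold change −3.61, SE 0.56, adjusted p = 0.000917). Tpsb2, a tryptase, was at 11.3, 13.2, 12.7 and 28 CPM against 0.838, 2.44, 1.33 and 1.08 CPM (log2 fold change −3.52, adjusted p = 0.000227). The groups did not overlap, and CT-26 tumor 4, one of the tumors with muscle RNA, was the highest in all 7 genes. Without both tumors with muscle RNA, 6 were lower and the median was −2.65. Among 18 dendritic cell genes, Xcr1, a receptor of cross-presenting dendritic cells, was at 2.49, 3.56, 0.385 and 3.91 CPM against 1.24, 0.226, 0.455 and 0.648 CPM (log2 fold change −2.0, SE 0.69, adjusted p = 0.0419), with CT-26 tumor 3 inside the Colon 26 range. Clec9a, another marker of these cells, was not called (log2 fold change −0.62, adjusted p = 0.381), and Zbtb46, a transcription factor of dendritic cells, was higher by 1.24 (adjusted p = 3.71e-05) and was present in the cultures at means of 3.54 CPM for CT-26 and 13.6 CPM for Colon 26.

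**Figure D4:**
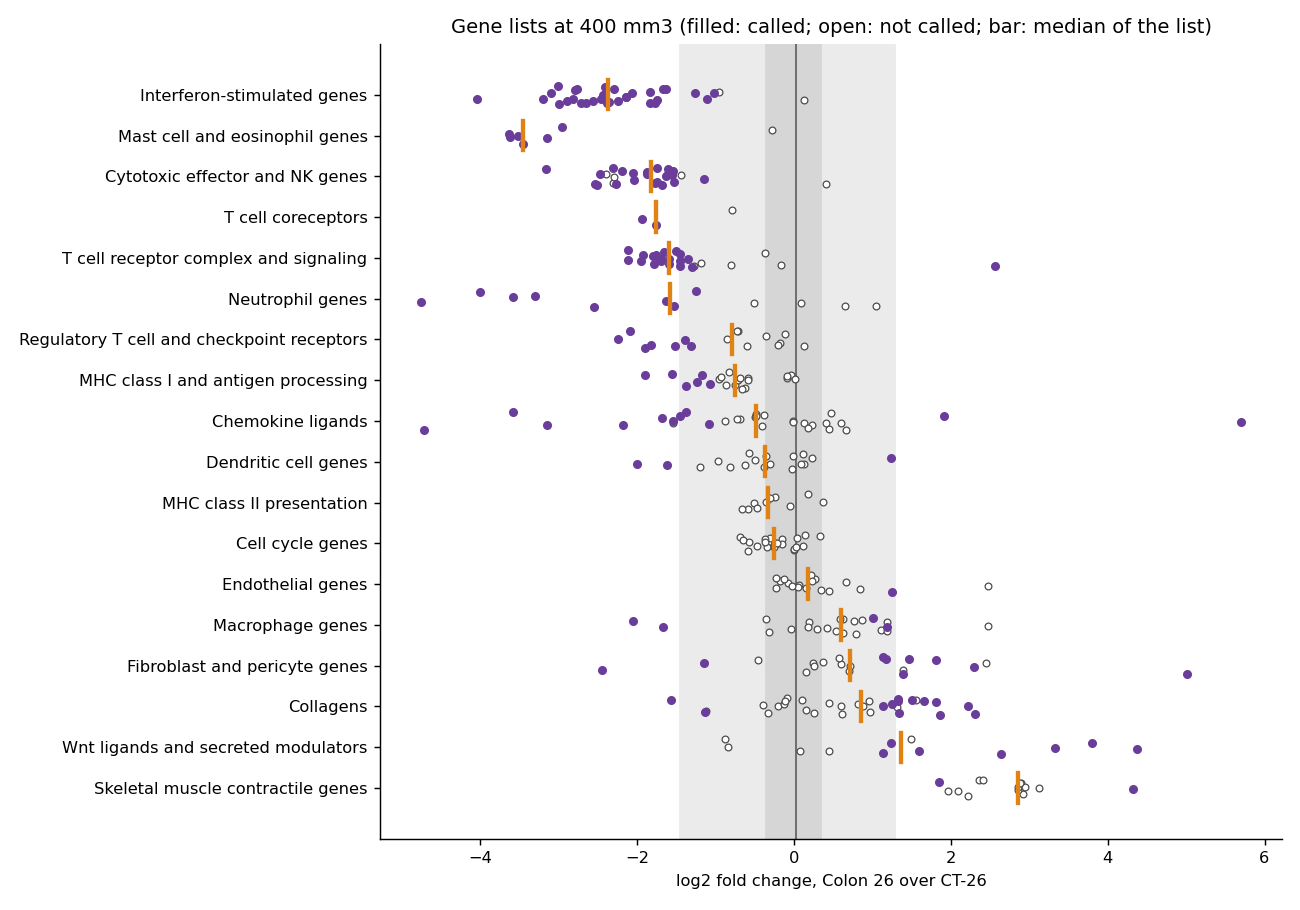
Log2 fold change of Colon 26 over CT-26 at 400 mm3 of each tested gene in the lists, with 1 point per gene (filled if called), a bar at the median of each list, a line at the median of all genes and grey bands for their middle 50% and 90%. The medians are −2.37 for interferon-stimulated genes, −1.82 for cytotoxic and NK genes and 1.37 for Wnt ligands and modulators, against 0.03 for all genes.

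Wnt ligands and secreted modulators were higher in Colon 26 in 7 of 12 tested, against 6.48% of all genes, and lower in none, with a median log2 fold change of 1.37. Wnt10b was at 8.95, 10.6, 8.36 and 12.1 CPM in CT-26 and at 100, 146, 169 and 144 CPM in Colon 26 (log2 fold change 3.80, SE 0.19, adjusted p = 3.56e-06). Wnt6 was at 0.545, 0.576, 0.193 and 0.714 CPM against 10.7, 10.3, 10.2 and 11.1 CPM (log2 fold change 4.38, adjusted p = 1.69e-05), and Wnt5a at 1.71, 2.17, 1.23 and 3.32 CPM against 15.8, 27.6, 25.1 and 16.1 CPM (log2 fold change 3.33, adjusted p = 8.45e-05). These secreted ligands did not overlap between the models. Wnt5b was at 0.42 CPM or less in CT-26 and 0.546 to 2.75 CPM in Colon 26 (log2 fold change 2.65, adjusted p = 0.0136), while Wnt10a was at 88.8 to 142 CPM against 119 to 145 CPM (log2 fold change 0.08, adjusted p = 0.648). Axin2, a feedback inhibitor induced by beta-catenin, was at 0.35, 0.44, 0.27 and 0.462 CPM against 3.28, 2.86, 2.42 and 2.05 CPM (log2 fold change 2.79, adjusted p = 5.44e-05), and of 6 such feedback targets 3 were higher and Lef1 lower. Wnt10b, Wnt6, Wnt5a and Axin2 were also present in Colon 26 cultures, at means of 62.5, 1.49, 21.8 and 4.95 CPM. Wnt5a and Axin2 overlap genes on the other strand.

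Of 20 fibroblast and pericyte genes 7 were higher in Colon 26 and 2 lower, and of 32 collagens 11 were higher and 2 lower, against 6.48% higher and 7.79% lower among all genes. Col1a1, a chain of fibrillar collagen I, was at 351, 724, 220 and 547 CPM in CT-26 and at 1295, 832, 851 and 1073 CPM in Colon 26 (log2 fold change 1.14, SE 0.34, adjusted p = 0.0223), and the cultured Colon 26 cells themselves held 281 CPM against 53.7 CPM. Dcn, the matrix proteoglycan decorin, went the other way, at 377, 381, 378 and 188 CPM against 60.8, 70.4, 63.1 and 48.4 CPM (log2 fold change −2.45, SE 0.23, adjusted p = 7.05e-05). Acta2 and Tagln, contractile proteins of myofibroblasts and smooth muscle, were at 9.9 to 27.9 CPM against 34.9 to 55.1 CPM and at 4.28 to 10.6 CPM against 26.8 to 44.2 CPM, and neither was above 0.474 CPM on average in culture. Timp3, an inhibitor of matrix proteases, was at 33.8, 48.8, 18.7 and 34.8 CPM against 171, 992, 780 and 719 CPM (log2 fold change 4.29, adjusted p = 0.00031), with the lowest Colon 26 value in tumor 1, the tumor rich in muscle RNA. It overlaps another gene.

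Skeletal muscle RNA was heavy in Colon 26 tumor 1 and present in CT-26 tumor 4. Contractile genes summed to 40.9, 50.2, 45.7 and 591 CPM in the CT-26 tumors and to 4283, 131, 137 and 118 CPM in the Colon 26 tumors, and genes of muscle calcium handling and metabolism to 169, 160, 186 and 312 CPM and to 1693, 101, 108 and 91.2 CPM. Acta1, the actin of skeletal muscle, was at 0.233, 0.237, 0.424 and 101 CPM in CT-26 and at 880, 1.5, 3.09 and 0.36 CPM in Colon 26. Myh4, a myosin of fast fibers, was at 763 CPM in Colon 26 tumor 1, 25.3 CPM in CT-26 tumor 4 and at most 0.489 CPM in the other 6. Of the 70 muscle genes, 67 were highest in Colon 26 tumor 1, and in 59 of these CT-26 tumor 4 came second. Adipoq, a hormone of fat cells, was at 3.05 CPM in Colon 26 tumor 1, 2.39 CPM in CT-26 tumor 4 and at most 0.333 CPM elsewhere. The list of 17 adipocyte genes as a whole did not follow it, with sums of 674 to 753 CPM in CT-26, 323 CPM in Colon 26 tumor 1 and 363 to 383 CPM in the other Colon 26 tumors.

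Of the 70 genes 24 passed the low-count filter, and 45 of the 46 left out were highest in Colon 26 tumor 1. Tpm2 and Actn3 were called among the 24, both higher in Colon 26, a share near the 6.48% of all genes called higher. Tpm2, a tropomyosin, was at 33, 38.8, 38.1 and 61.5 CPM against 275, 117, 115 and 109 CPM (log2 fold change 1.85, SE 0.34, adjusted p = 0.00227), was higher in every Colon 26 tumor, and was at means of 13.8 and 72.4 CPM in culture. Actn3, an actinin of fast fibers, was at 0.156, 0.271, 0.308 and 4.45 CPM against 96.5, 1.77, 2.21 and 1.26 CPM (log2 fold change 4.33, SE 1.73, adjusted p = 0.0717) and was called in 4 of 8 fits that left out 1 tumor. Acta1 had a log2 fold change of 3.13 with an SE of 2.44 (adjusted p = 0.327). Without CT-26 tumor 4, in a fit that kept Colon 26 tumor 1, 14 of the 70 genes were called, all higher in Colon 26. Over all genes 1185 were higher in that fit. Without both tumors 5 of the 70 were higher and 4 lower, against 1030 and 1270 over all genes. The low-count filter was run anew in each fit.

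**Figure D5:**
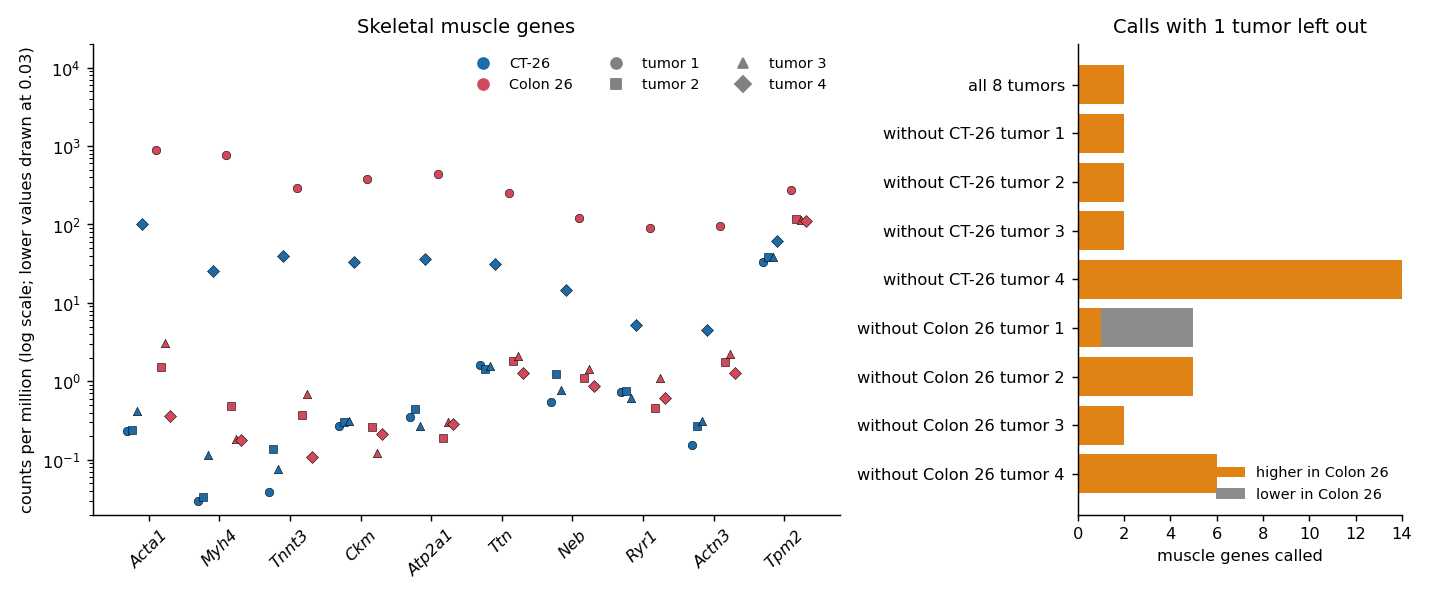
CPM (counts scaled to library size), on a log scale, of skeletal muscle genes with 1 point per tumor of 400 mm3 (left, values under 0.03 drawn there), and muscle genes called with all tumors or without 1 of them (right, bars). Colon 26 tumor 1 lies highest in every gene shown, at 880 CPM for Acta1, and the calls go from 2 with all tumors to 14 without CT-26 tumor 4.

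The tumors with muscle RNA were not the lowest of their model in T cell genes. Colon 26 tumor 1, with the most muscle RNA, had the highest summed level of the T cell receptor list among the Colon 26 tumors, at 43.7 CPM against 21.7, 41.8 and 35.4 CPM, and was the highest in 18 of 25 genes. CT-26 tumor 4 was at 88.6 CPM, between the other CT-26 tumors at 62.6, 130 and 44.1 CPM. The hypoxia and glycolysis list was lowest in CT-26 tumor 4 among the CT-26 tumors, at 6743 CPM against 13582 to 17789.8 CPM, and in Colon 26 tumor 1 among the Colon 26 tumors, at 8526 CPM against 9241 to 12131 CPM. Of its 20 genes 2 were higher in Colon 26, the carbonic anhydrase Car9 (log2 fold change 1.64) and the prolyl hydroxylase Egln3 (1.57), and Ero1l, an oxidase of the endoplasmic reticulum, was lower (−1.20; not called without CT-26 tumor 3), shares near those of all genes (6.48% and 7.79%). Cell cycle genes were not called in either direction (0 of 23, median −0.25), although 13 of them had an adjusted p of at most 0.1 with lower values in Colon 26, against 26.3% of all genes.

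Tumors of 100 and 800 mm3 were compared in the same way, with other tumors. The lymphocyte lists had 30 of 80 genes lower and 2 higher at 100 mm3, where 7.06% of all genes were lower and 6.17% higher, and 26 of 79 lower and 2 higher at 800 mm3, where 7.62% were lower and 6.5% higher. The T cell receptor list had a median log2 fold change of −1.14 at 100 mm3, −1.59 at 400 mm3 and −0.40 at 800 mm3, the cytotoxic and NK list −1.87, −1.82 and −1.20, and the interferon-stimulated genes −2.41, −2.37 and −1.51. The neutrophil list had 0.53, −1.58 and −0.61, and the contractile muscle list 0.96, 2.86 and −2.04. A test of the difference itself, the Colon 26 over CT-26 change at 400 mm3 against the mean of those at 100 and 800 mm3 over 24 tumors, called 0 of 16487 genes (edgeR, smallest adjusted p = 0.416). At an unadjusted p of 0.05, 1567 genes (9.5%) passed, DESeq2 called 23 and limma's voom with library weights 133. Without CT-26 tumor 4 edgeR called 100, of which 16 were muscle genes and 1 a lymphocyte gene, and without both tumors with muscle RNA 41, of which 0 were muscle genes. The lymphocyte genes were therefore not shown to differ more at 400 mm3 than at the other sizes.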

How the data were processed

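RNA-seq of 8 tumors of 400 mm3 was used, grouped by the model and size in their labels, with 16 tumors of other sizes and 6 cultures beside them. The authors used Array Studio and the gene models of Ensembl release 78 to make the deposited estimated counts, which are not normalized, and 23.0% of whose non-zero values are not whole. The authors also deposited FPKM of the same genes, used here only in alternatives. The aligner, the genome build and the handling of strand are not given in the sources used here. The submitters' processing notes name DESeq2 1.24.0. Columns of single-library values that went unused numbered 0.

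Before testing, the estimated counts were rounded, although the designs spoke of whole counts. Each comparison used edgeR's quasi-likelihood test (edgeR 4.0.16, limma 3.58.1, R 4.3.3) on its own libraries, TMM factors, the default low-count filter of that tool, and p-values adjusted by Benjamini and Hochberg's method. As in the study's methods, a gene was DE when its adjusted p did not exceed 0.1 and its log2 fold change was 1 or more in size. Standard errors came from the F statistics. CPM used TMM-scaled library sizes. A floor of 3 counts per library was taken for genes without counts, and exact 95% counting intervals of a ratio for groups with 1 to 3 counts in all. Depth, floors and intervals cover counting error only, and not the spread between tumors. The reads carry no molecular identifiers. The scripts were tested on simulated data. Tables were made with pandas 2.3.3 and numpy 2.4.6 and figures with matplotlib 3.10.9, in Python 3.11.15. Symbols and coordinates were looked up in GENCODE's GRCm38 annotation, which held 52207 of 53431 identifiers (97.7%). Promoters are from RefSeq (GRCm38.p6).

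The comparison, its 32 gene lists (670 of 671 genes found) and its rules were chosen with earlier results of these data known. Genes named are the 8 with the largest change in each direction among DE genes with groups that do not overlap, a mean count of at least 100 and a call in every fit that left out 1 tumor; the defining and at most 6 called members of each list, or any member of the lymphocyte, muscle and chemokine lists; 5 in each direction from the contrast between sizes; and genes the study discusses. Results of some of these genes are not reported here. Lists are described by counts and medians only. The alternatives were DESeq2 1.42.0, RLE factors, library size only, no filter, a filter of 10 counts in every library, limma on log2(FPKM + 1) and log2(FPKM + 0.1), voom with library weights, all 24 tumors in one fit, tumor volume as a covariate, a stricter adjusted p (0.05), dropping the minimum fold change, and each tumor left out; leaving out both tumors with muscle RNA was added after seeing the data.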

Additional observations from a re-analysis of the deposited data

Results flagged for a closer look

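In groups of 4 tumors, a tumor was noted when its gap to the nearest other tumor, divided by the range of the 4, exceeded Dixon's 95% critical value, which chance does in about 1 in 20 groups. Skeletal muscle contractile genes had gaps of 0.983 in CT-26 (tumor 4, 591 CPM) and 0.996 in Colon 26 (tumor 1, 4283 CPM), genes of muscle calcium handling and metabolism 0.834 and 0.99 in the same tumors, and both muscle lists together 0.969 and 0.994. Cytotoxic and NK genes had a gap of 0.929 in CT-26, where tumor 3 was at 1482 CPM against 278 to 363 CPM. Mast cell and eosinophil genes had a gap of 0.9 in CT-26, where tumor 4 was at 94.5 CPM against 35.3 to 41.2 CPM. Interferon-stimulated genes had a gap of 0.869 in CT-26, where tumor 2 was at 7129 CPM against 3594 to 4057 CPM. Semaphorins, plexins and neuropilins had a gap of 0.843 in CT-26, where tumor 4 was at 2219 CPM against 2509 to 2563 CPM. Slc1a2 had a gap of 0.859 in CT-26, where tumor 1 was at 26.6 CPM against 43.1 to 45.9 CPM.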

How the results depend on the processing

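The 2176 DE genes (988 higher, 1188 lower) became 1433 (645 and 788) with at least 10 counts in every library, a filter that tests fewer genes, 951 (428 and 523) with limma on log2(FPKM + 1), which shrinks differences of low genes, and 7963 (3952 and 4011) without a minimum fold change. The 55 lymphocyte genes called, 54 of them lower, became 30 (30 lower) with that filter and 19 (19 lower) with limma on log2(FPKM + 1). Leaving out 1 tumor at a time gave 2152 to 2466 DE genes and 42 to 56 lymphocyte genes. The 2 skeletal muscle genes called became 5 without a filter, 6 with voom and library weights, 21 with 24 tumors in one fit, 9 without both tumors with muscle RNA and 1 each with 10 counts in every library, limma on log2(FPKM + 1), tumor volume as a covariate and an adjusted p of 0.05; leaving out 1 tumor gave 2 to 14, with 14 without CT-26 tumor 4, 5 without Colon 26 tumor 1 or tumor 2 and 6 without Colon 26 tumor 4. The contrast of 400 mm3 with the other sizes, with 0 genes called, gave 23 with DESeq2, 133 with voom and library weights and 41 without both tumors with muscle RNA; leaving out 1 tumor gave 0 to 100, with 100 without CT-26 tumor 4. Where no construction is given, the cause was not tested. For 132 named genes, 2682 alternative values held 2456 with the same direction and side of the thresholds, 161 that lost the call, 65 that gained it and 0 with the opposite direction. No paired analysis was possible because the labels carry no replicate numbers. Genes near 1 CPM, among them Cd3e and Foxp3, rest on few counts per library, which limits the precision of their fold changes.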

Other observations

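Of 22 genes of epithelial and colon identity 7 were tested, of which 2 were higher in Colon 26, 2 lower and 3 not called, with a median log2 fold change of −0.08. Among all genes 6.48% were higher and 7.79% lower. Krt20, a keratin of the gut lining, was at 125, 116, 165 and 128 CPM in CT-26 tumors and at 2.41, 18.7, 11.7 and 15.5 CPM in Colon 26 tumors (log2 fold change −3.47, SE 0.49, adjusted p = 0.000574). Cdx2, a transcription factor of the intestine, was at 0.378 CPM or less in CT-26 and at 4.72, 3.76, 5.06 and 4.86 CPM in Colon 26 (log2 fold change 4.68, SE 0.62, adjusted p = 0.000391). Of 8 mismatch repair genes 1 was called, near the share of all genes called (14.3%). This was Mlh3, at 26.2, 21.9, 28.6 and 24.4 CPM against 4.25, 5.9, 4.39 and 5.61 CPM (log2 fold change −2.33, SE 0.15, adjusted p = 1.11e-05), while Msh6 had a log2 fold change of 0.21, under the 2-fold limit. Msh6 overlaps a gene on the other strand. Of 14 tested cytokines linked to cachexia and myeloid growth, 5 were lower in Colon 26 (8 of the 17 listed without both tumors with muscle RNA), against 7.79% of all genes. The 1 higher gene, a share near the 6.48% of all genes, was Gdf15, a stress-induced cytokine. It was at 0.154 to 0.462 CPM against 2.31 to 4.67 CPM (log2 fold change 3.50, adjusted p = 0.000139).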
